A study of Bos taurus and Cervus elaphus with 24 samples.

Results

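Blood of Polish Red cattle, a local European dairy breed, was compared between peak lactation and the dry period, the rest before calving when no milk is made. The comparison takes the 4 arrays labelled Polish Red at peak lactation against the 4 labelled Polish Red in the dry period, 8 of the 24 arrays of the series. The same 4 animals were bled in both states, per the series text, and the subject numbers of the labels were read as those animals. The other 16 arrays hold Holstein-Friesian cattle and deer in the same states, and they entered the fit so that all groups share one estimate of spread. The labels name no treatment and no age, and blood was collected into tubes that preserve RNA. Values are log2 ratios: Cy5 carried the RNA of 1 animal, and Cy3 a reference pooled from 20 cattle outside the groups. The labels call the material peripheral blood nuclear cells, while whole blood was drawn. Among the markers tested, 25 of 25 for T cells, 19 of 19 for B cells, 20 of 20 for monocytes, 27 of 28 for neutrophils and 22 of 24 for red cell precursors were above background on all 8 arrays. A probe was tested only where Cy5 was above background on at least 3 of 4 arrays of a state. Each gene is read on its brightest tested probe, so high counts were favoured. On single Polish Red arrays, 30835 to 43635 of all 43653 probes were above background. The marker counts therefore do not show which cells the samples held. In such bulk RNA, fewer cells of a type and less RNA per cell cannot be told apart.

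At peak lactation a cow puts more energy into milk than it eats, and fat stores are released as fatty acids that other tissues burn. Long-chain fatty acids enter mitochondria through the carnitine system, in which CPT1A attaches carnitine at the outer membrane and SLC25A20 carries the product across the inner one. PDK4 switches off pyruvate dehydrogenase and so spares glucose when fat is burnt, and all of these genes are known targets of the nuclear receptors of the PPAR family.

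The array reads each transcript with probes of 60 bases. The probes printed here belong to genes of the fatty acid, Fc receptor, ribosomal, deacetylase and gamma delta T cell results, and show where on the transcript a reading was taken. Each has at least 1 forward reading frame with no stop codon, which need not be the coding frame. The first probe of CPT1A is the bright one on which that gene's values rest. The second lies nearer the start of the same transcript, and the PDK4, KLF11, FCGRT, RPL39 and HDAC7 probes are likewise the early probes of genes whose reported values come from a brighter probe. Each is given 5′ to 3′ as deposited, with coordinates on UMD 3.1; a span longer than the probe means that the files place it over more than 1 block.
CPT1A, later probe, chr29:46824212-46824271 (minus strand): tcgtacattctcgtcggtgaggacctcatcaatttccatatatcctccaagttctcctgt
CPT1A, early probe, chr29:46849256-46850555 (minus strand): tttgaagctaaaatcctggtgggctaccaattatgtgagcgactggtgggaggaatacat
PDK4, early probe, chr4:12763702-12763761 (minus strand): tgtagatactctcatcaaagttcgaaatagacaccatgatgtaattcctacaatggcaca
KLF11, early probe, chr11:87532800-87532859 (minus strand): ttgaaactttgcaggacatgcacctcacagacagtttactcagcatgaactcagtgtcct
FCGRT, early probe, chr18:56416995-56417054 (plus strand): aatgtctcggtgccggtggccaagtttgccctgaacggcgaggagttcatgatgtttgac
RPL39, early probe, chrX:3998086-3999606 (minus strand): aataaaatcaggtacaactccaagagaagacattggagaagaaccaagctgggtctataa
HDAC7, early probe, chr5:32664486-32664545 (plus strand): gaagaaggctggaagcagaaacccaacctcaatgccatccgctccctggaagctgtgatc
WC1.3, bright probe, chr5:103110647-103110958 (minus strand): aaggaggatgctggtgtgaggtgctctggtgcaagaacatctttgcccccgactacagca

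One array stood apart before any comparison, that of animal 1 in the dry period (dry 1). Its median Cy5 spot intensity was 2038 scanner units, against 109 to 163 on the other 7 Polish Red arrays, and 43635 of the 43653 probes were above background on it. It had 703 outlier spots against 3 to 75, and the correlation of its spike-in controls was 0.33 against 0.899 or more on the other Polish Red arrays, while 4 Holstein-Friesian arrays in the fit read 0.17 to 0.40. Its log2 ratios leaned to one side. From the 5th to the 95th percentile of the probes tested they ran from -1.23 to 0.27. On the other 3 dry arrays they ran from -0.43 at the lowest to 0.40 at the highest. Over probes it correlated with the other Polish Red arrays at 0.098 to 0.30, and the other 7 arrays correlated among themselves at 0.18 to 0.63. The brightness plot shows this array far above the rest, with its log2 ratios spread downward. All results are therefore given on 8 arrays and without dry 1. Slide and state were also uneven: 3 of the 4 dry arrays and none of the lactation arrays sat at position 1 of a slide, and slides A, B and C held both states.

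**Figure D1:**
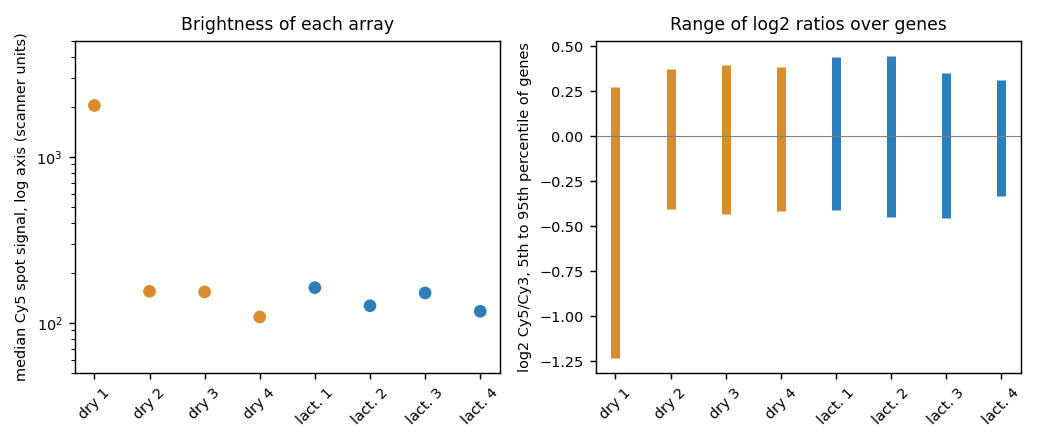
Left, the median Cy5 spot signal of each Polish Red array in scanner units on a log axis. Right, the range from the 5th to the 95th percentile of the log2 Cy5/Cy3 ratio on each array. It is taken over the 32590 probes tested, labelled genes on the axis, with dry arrays in orange and lactation arrays in blue. Dry 1 reads 2038 against 109 to 163 on the others, and its range reaches down to -1.23.

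Of 32590 probes tested, 0 passed an adjusted p of 0.05 in limma with all 8 arrays (0%), and 0 passed without dry 1 (0%). The smallest adjusted p was 0.532. Before adjustment, 1372 probes were higher at peak lactation at a p under 0.05 (4.21%) and 446 lower (1.37%). Without dry 1 the same count was 366 higher (1.12%) and 460 lower (1.41%). The surplus on the higher side was not seen once dry 1 was left out. Median centring of each array in place of loess gave 728 higher and 113 lower, quantile normalization gave 1692 and 1398, and the scanner software's processed signals gave 1087 and 752. With array position as a factor there were 425 higher and 484 lower. Dry 2 also weighed on the count, which was 3084 higher and 450 lower without it.

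The same held when each gene was represented by its brightest probe. Among 13263 genes the log2 difference was above 0 in 61.5% with all arrays (below 0 in 38.5%) and in 50.4% without dry 1 (below 0 in 49.6%), and the median of all genes was 0.05 and 0.00. At an unadjusted p under 0.05, 724 genes were higher (5.46%) and 127 lower (0.958%); without dry 1 these were 166 (1.25%) and 164 (1.24%). The 4 lactation values lay above the 4 dry values, with no overlap, in 155 genes (1.17%) and below them in 127 (0.958%). Without dry 1 the groups did not overlap in 263 genes on the higher side (1.98%) and 324 on the lower (2.44%). All 4 animals were higher at lactation in 879 genes (6.63%) and lower in 532 (4.01%). The plot of each gene with and without dry 1 shows most genes to the right of 0 falling below the diagonal, while CPT1A, PDK4 and SLC25A20 lie close to it.

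**Figure D2:**
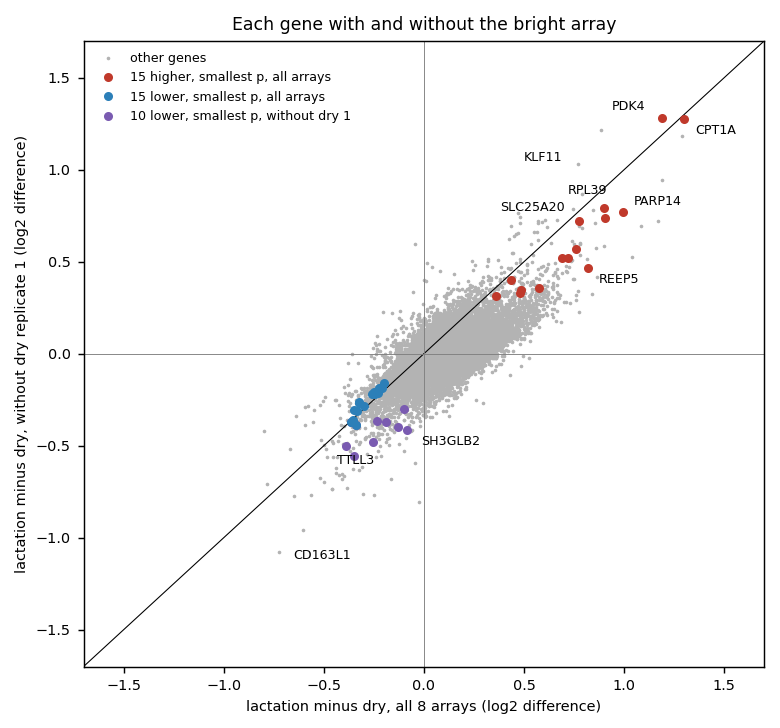
Each point is a gene, with the log2 difference of lactation minus dry on all 8 arrays on the x axis and without dry 1 on the y axis; the diagonal marks equal values. Red and blue points are the 15 genes each with the smallest p on the higher and lower side, and purple points are the 10 lower genes with the smallest p without dry 1. CPT1A sits at 1.3 and 1.27, REEP5 at 0.82 and 0.46.

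The 3 genes of fatty acid entry and glucose sparing had the smallest p-values and were higher in 4 of 4 animals, without passing the threshold. CPT1A had log2 ratios of -1.03, -1.3, -0.64 and -0.85 in the dry period for animals 1 to 4 and of 0.11, 0.04, 0.41 and 0.82 at peak lactation. All 4 dry values lay below all 4 lactation values. The difference was 1.3 (SE 0.24, 2.46-fold, adjusted p = 0.532), and 1.27 (SE 0.26, 2.42-fold) without dry 1. SLC25A20, on chr22:51652477-51652536, read -0.85, -0.50, -0.76 and -0.60 in the dry period and 0.03, -0.28, 0.31 and 0.32 at lactation. Here too the states did not overlap, and animal 2 differed least, by 0.22 against 0.88 to 1.07 in the others. Its difference was 0.77 (SE 0.15, adjusted p = 0.532), and 0.72 (SE 0.16) without dry 1. PDK4, on chr4:12755286-12755345, read -1.3, -1.72, -1.64 and -1.66 in the dry period and -0.40, -0.92, 0.22 and -0.45 at lactation. Its dry values without dry 1 were tight (mean -1.67, SD 0.04, n = 3), and the lactation values spread more widely (SD 0.47, n = 4). The difference was 1.19 (SE 0.24, 2.28-fold, adjusted p = 0.638), and 1.28 (SE 0.26, 2.43-fold) without dry 1.

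These differences were also present on each slide that carried both states. For CPT1A the lactation array of slide A was 1.14 above its dry array, that of slide B 0.68 above, and the mean of the 2 on slide C 1.46 above. PDK4 gave 0.90, 0.72 and 1.54 in the same order, and SLC25A20 gave 0.88, 0.48 and 0.92. The dry array of slide A is dry 1. Arrays of slide B come from different animals, and slide C sets animals 3 and 4 at lactation against dry 4. Dry 2 was on a slide with no Polish Red lactation array and enters none of these values. The reference dye is meant to be the same on every array. Each dye was also taken alone after the loess step, which uses both dyes, and then quantile normalized. CPT1A then differed by 1.87 in Cy5 and by 0.66 in Cy3, PDK4 by 1.63 and 0.35, and SLC25A20 by 1.11 and 0.27. Over all genes the median was 0.15 in Cy5 and 0.13 in Cy3, and the part of the reference dye in these results was not tested.

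The rest of the fatty acid pathway did not stand as far from all genes. In carnitine entry and beta oxidation, 26 of 32 genes were above 0 with a median of 0.17, and 23 were with a median of 0.04 without dry 1, against medians of 0.05 and 0.00 over all genes. Of these, 3 were higher at an unadjusted p under 0.05 in each fit, where 5.46% of all genes were with all arrays and 1.25% without dry 1, and 0 passed after adjustment. CPT1A, SLC25A20 and ETFB were those 3 with all arrays. ETFB is part of the flavoprotein that takes electrons from beta oxidation, and it was at 0.49 (SE 0.18), where dry 1 read -1.28 and the other arrays -0.24 to 0.21. Without dry 1 it was 0.19 (SE 0.10). PPAR receptors, partners and targets, a list that shares CPT1A, SLC25A20 and other genes with the former, had 16 of 22 genes above 0 and a median of 0.15. Without dry 1 there were 15 and a median of 0.03. The pyruvate dehydrogenase complex with its kinases had 12 of 14 genes above 0 and a median of 0.13, and 11 with 0.07 without dry 1. MPC2, a subunit of the carrier that brings pyruvate into mitochondria, was 0.30 higher (SE 0.10), and 0.21 higher (SE 0.10) without dry 1. PDHA1, the catalytic subunit that PDK4 phosphorylates, was at 0.26 (SE 0.13) and 0.09 (SE 0.10).

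**Figure D3:**
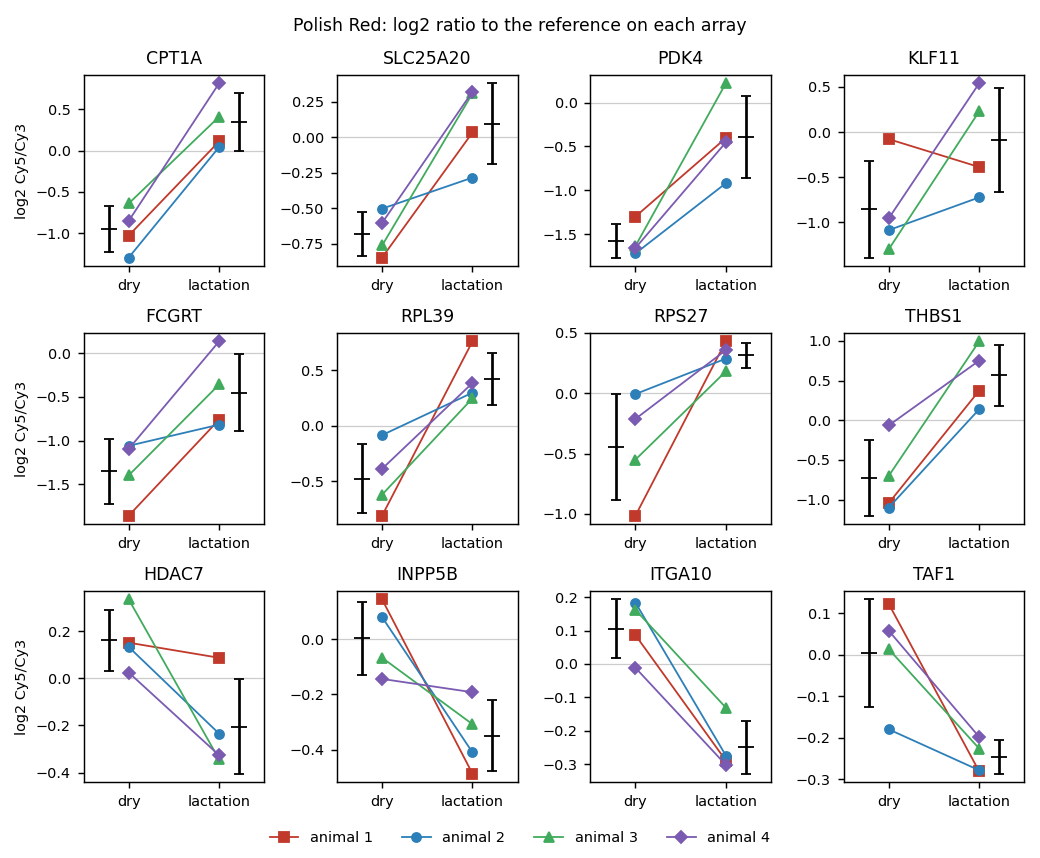
The log2 Cy5/Cy3 ratio of 12 genes on each Polish Red array, with the 2 values of an animal joined by a line. Black bars give the mean ± SD of the 4 arrays of a state. CPT1A, SLC25A20 and PDK4 show all dry points below all lactation points, while KLF11 has dry 1 at -0.08 and its other dry points at -0.95 to -1.3.

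KLF11 and KLF10, zinc finger transcription factors of the TGF-beta response that are also linked to glucose metabolism, were higher by a similar amount. KLF11, on chr11:87525755-87525814, read -0.08, -1.09, -1.3 and -0.95 in the dry period and -0.39, -0.72, 0.23 and 0.54 at lactation. Animal 1 was lower at lactation and the other 3 higher. The difference was 0.77 (SE 0.26, adjusted p = 0.847), and 1.03 (SE 0.24) without dry 1. An overlapping probe further along read -1.58 on dry 1 and gave 1.12 and 1.03, so the neighbouring probes disagreed on that array. KLF10 was 0.79 higher (SE 0.21, adjusted p = 0.847), and 0.68 (SE 0.22) without dry 1. Its dry values of -1.29, -0.62, -1.08 and -0.90 met lactation values of -0.55, -0.62, 0.13 and 0.31, with animal 2 reading the same to 2 decimals in both states. KLF10 stands in the list of insulin signalling and FOXO response, in which 16 of 29 genes were above 0 with a median of 0.03.

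The size of a difference varied among the probes along a transcript. For CPT1A the early probe, at base 659, gave 0.22 and the later one, at base 2166, gave 1.3. For PDK4 the probes at bases 561, 1328 and 1949 gave 0.23, 0.26 and 0.46, the 3 probes between bases 2636 and 2730 gave 1.09 to 1.22, and those at 3296 and 3682 gave 0.64 and 0.30. All 8 PDK4 probes were above 0. Among 77 named genes with at least 2 tested probes, 19 had probes of both signs, among them ETFB (-0.14 to 0.49), HSPD1 (-0.02 to 0.53), MRPS33 (-0.03 to 0.76), CD4 (-0.18 to 0.24), PDHA1 (-0.05 to 0.26) and KLHDC3 (-0.18 to 0.08). KLF11 gave 0.23 at base 792 and 0.77 and 1.12 at bases 3884 and 3903. THBS1, the matrix protein thrombospondin 1 that platelets and monocytes release, showed a steep step: its 4 probes up to base 3889 gave 0.01 to 0.22, and those at bases 5007 and 5179 gave 1.32 and 1.29. The steps along these transcripts are shown in the plot by probe position.

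Signal differed with position as well. The mean log2 Cy5 signal was 6.82 on the early and 9.34 on the later CPT1A probe, and 6.55 on the first and 9.35 on the brightest PDK4 probe. Over 5194 genes with 2 tested probes at least 500 bases apart on one transcript, the one nearer the end had the larger absolute difference in 3376 (65.0%). The share depended on which probe was picked. With the end probe at an unadjusted p under 0.05 in limma, the end probe was larger in 393 of 405 genes (97.0%). With the start probe at that threshold, the end probe was larger in 32 of 156 (20.5%). The median absolute difference was 0.08 at the start and 0.13 at the end, and the median log2 Cy5 signal 7.59 and 9.08. The part of signal and of transcript ends in these steps was not tested.

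**Figure D4:**
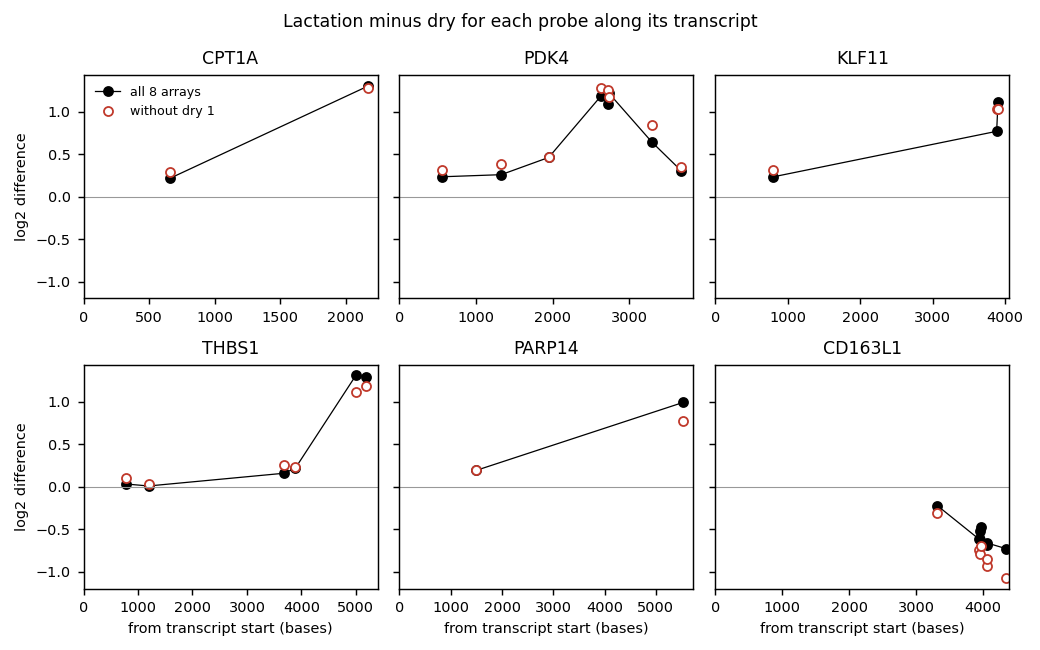
The log2 difference of lactation minus dry for each probe of 6 genes against its distance in bases from the transcript start. Black points use all 8 arrays and open red points leave out dry 1. In PDK4 the 3 probes between 2636 and 2730 bases stand at 1.09 to 1.22, and in THBS1 the difference goes from 0.22 at 3889 to 1.32 at 5007.

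Genes of the ribosome, which makes protein, were mostly above 0 in both fits, by less without dry 1. Of 78 cytosolic ribosomal protein genes 73 were above 0 with a median of 0.25, and 66 with 0.12 without dry 1. At an unadjusted p under 0.05 were 28, or 10 without dry 1, all on the higher side, against 5.46% and 1.25% of all genes, and 0 passed after adjustment. The early RPL39 probe printed above gave 0.99. The median by animal was 0.61, 0.06, 0.32 and 0.19, and within slides A, B and C it was 0.61, 0.27 and 0.18. Median centring in place of loess gave 0.61. RPL39, a small protein of the large subunit's exit tunnel, on chrX:3997932-3997991, read -0.81, -0.08, -0.62 and -0.39 in the dry period and 0.76, 0.30, 0.25 and 0.39 at lactation. The states did not overlap. The difference was 0.90 (SE 0.19, 1.87-fold, adjusted p = 0.638), and 0.79 (SE 0.20) without dry 1. RPS27, a zinc finger protein of the small subunit, was higher by 0.76 (SE 0.21), and by 0.57 (SE 0.20) without dry 1, where its dry values were -0.01, -0.55 and -0.21 against 0.18 to 0.43 at lactation. Of its 3 probes, 1 gave -0.12. RPL31 was higher by 0.69 (SE 0.19) and 0.52 (SE 0.18). Its 4 lactation values of 0.45 to 0.60 all stood above the highest dry value of 0.37. Ribosomal proteins have many processed copies in mammalian genomes, so reads of such probes are uncertain as to the copy.

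Subunits of the respiratory chain, the mitochondrial machinery that turns electrons from fuel into ATP, leaned on dry 1 more than the ribosome did. Of 37 complex I subunits 36 were above 0 with a median of 0.38, and 34 with 0.13 without dry 1; 17 were higher at an unadjusted p under 0.05 (5.46% of all genes were), and 1 without dry 1 (1.25% of all genes). Its median was 1.09 in animal 1, -0.02 in animal 2, 0.42 in animal 3 and 0.11 in animal 4. Complexes II to V had 40 of 41 above 0 with a median of 0.37, and 32 with 0.12 without dry 1, and by animal 1.15, -0.08, 0.41 and 0.17. Animal 2 thus stood at or below 0 in both. COX6C, a subunit of cytochrome c oxidase, read -0.86, 0.41, -0.72 and -0.41 in the dry period and 0.09, 0.42, 0.52 and 0.39 at lactation. It was 0.75 higher (SE 0.23), and 0.59 (SE 0.23) without dry 1, with animal 2 differing by 0.0072. NDUFB2 of complex I was at 0.46 (SE 0.16) and 0.22 (SE 0.10), and ATP5ME of the ATP synthase at 0.51 (SE 0.17) and 0.26 (SE 0.12). PET100, which helps to assemble cytochrome c oxidase, was at 0.58 (SE 0.17) and 0.36 (SE 0.13), and SLIRP, which stabilizes mitochondrial messenger RNA, at 0.36 (SE 0.11) and 0.32 (SE 0.11).

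Other housekeeping lists also had their largest median in animal 1 and a median below 0 in animal 2. Mitochondrial ribosomal proteins had 73 of 76 genes above 0 with a median of 0.19, and 58 with 0.09 without dry 1, and by animal 0.43, -0.04, 0.26 and 0.11. MRPS33 read -1.89 on dry 1 against -0.28 to 0.38 on the other dry arrays, and its difference went from 0.76 (SE 0.29) to 0.29 (SE 0.17) without it. Proteasome subunits had 34 of 37 above 0 with a median of 0.23, and 28 with 0.06 without dry 1, and by animal 0.79, -0.01, 0.23 and 0.03. PSMD1, a scaffold of the proteasome's regulatory cap, kept 0.26 (SE 0.10) of 0.49 (SE 0.15). Heat shock proteins and chaperones had 23 of 26 above 0 and a median of 0.24, and 16 with 0.08 without dry 1, and by animal 0.65, -0.08, 0.15 and 0.14. HSPD1, the mitochondrial chaperonin, was at 0.53 (SE 0.22) and 0.24 (SE 0.17). Cholesterol synthesis and uptake had 22 of 30 above 0 and a median of 0.08, and 17 with 0.03 without dry 1, and by animal 0.51, -0.02, -0.01 and 0.05. HMGCS1, which makes the precursor of mevalonate, had dry values of -0.97, -0.04, -0.07 and -0.18 and lactation values of 0.22 to 0.30 that did not overlap. Its difference was 0.57 (SE 0.20), and 0.35 (SE 0.18) without dry 1. In all of these lists dry 1 had the lowest mean of the 8 arrays.

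**Figure D5:**
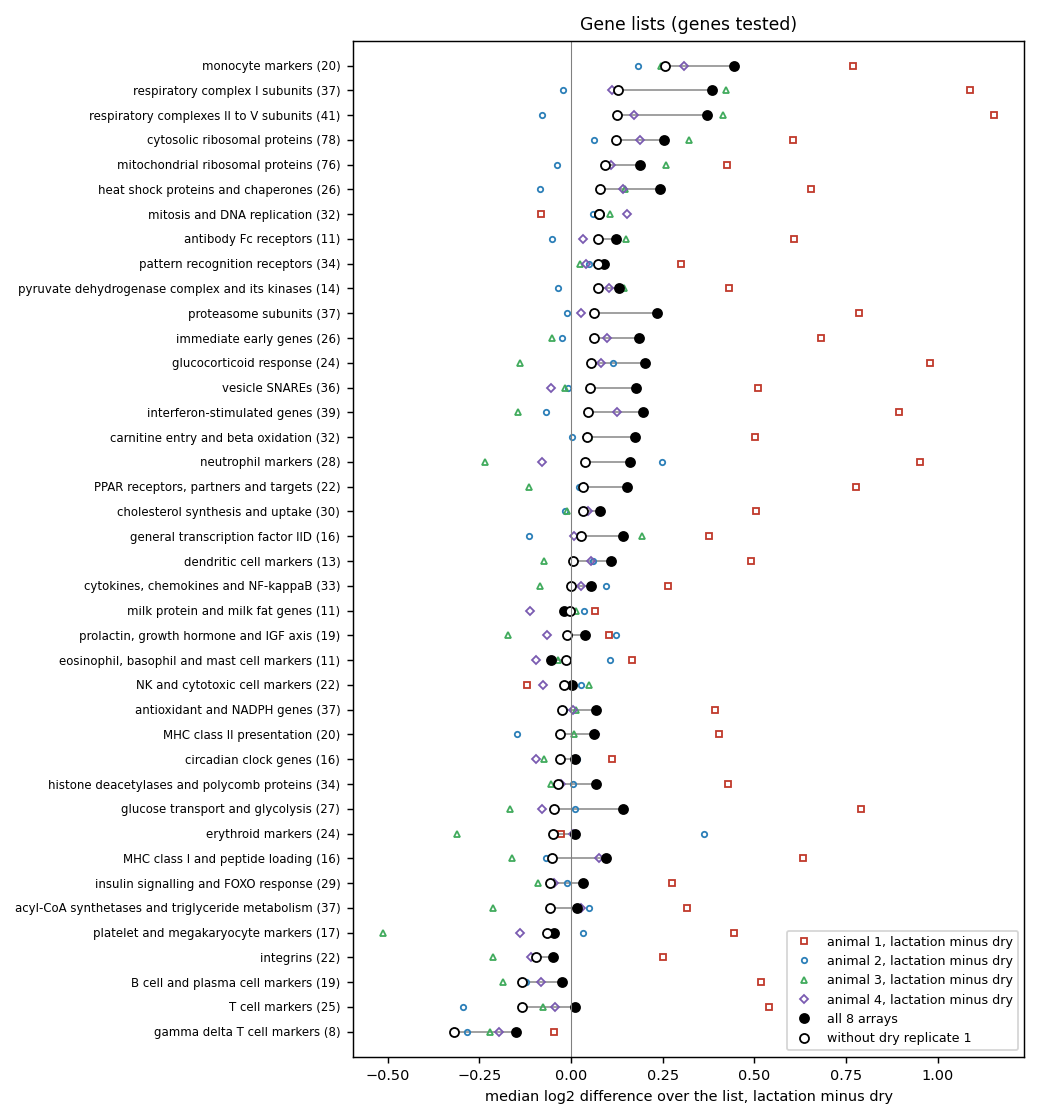
The median log2 difference of lactation minus dry over the tested genes of each of 40 lists, with the number of genes in parentheses. Filled black points use all 8 arrays, open black points leave out dry 1, and coloured symbols give the 4 animals. Animal 1 stands apart to the right in most lists, as in complex I at 1.09, and gamma delta T cell markers are lowest at -0.15 with all arrays and -0.32 without dry 1.

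Markers of monocytes were mostly above 0 with and without dry 1. Of 20 tested, 17 were above 0 with a median of 0.44, and 18 with 0.26 without dry 1, and 8 and 4 were higher at an unadjusted p under 0.05, against 5.46% and 1.25% of all genes. The median by animal was 0.77, 0.18, 0.25 and 0.31, above 0 in all 4, and within slides 0.77, 0.12 and 0.12. The mean over the list ran from -0.87 to -0.49 on dry arrays and from -0.41 to -0.02 on lactation arrays, with no overlap. LYZ, lysozyme, did not lean on dry 1: its dry values were -0.45, -0.96, -1.08 and -0.81 and its difference went from 0.59 (SE 0.27) to 0.71 (SE 0.29). VCAN, a proteoglycan that blood monocytes express, was higher in 4 of 4 animals by 0.77 (SE 0.29), and by 0.69 (SE 0.31) without dry 1. Neutrophil markers had 22 of 28 above 0 with a median of 0.16, and 18 with 0.04 without dry 1. Their medians by animal were 0.95, 0.25, -0.23 and -0.08, in both directions. S100A8, a calcium-binding alarm protein of neutrophils and monocytes, was higher in 4 of 4 animals by 1.19 (SE 0.47), and by 0.94 (SE 0.50) without dry 1, and S100A12 by 0.85 (SE 0.44) and 0.78 (SE 0.48).

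Receptors for antibodies included FCGRT, which was among the higher genes with the smallest p. FCGRT, the neonatal Fc receptor, which protects IgG from breakdown and carries it across epithelia, read -1.86, -1.06, -1.40 and -1.09 in the dry period and -0.76, -0.82, -0.36 and 0.14 at lactation. All 4 lactation values stood above all dry values. The difference was 0.90 (SE 0.19, 1.87-fold, adjusted p = 0.638), and 0.73 (SE 0.19, 1.66-fold) without dry 1, with all 3 probes of the gene above 0 at 0.23 to 0.90. FCGR3A, the Fc receptor of natural killer cells, neutrophils and some monocytes, was higher by 0.86 (SE 0.27), and by 0.58 (SE 0.25) without dry 1. Dry 1 read -2.13 there, and the other dry values of -0.99, -0.63 and -1.35 overlapped the lactation values of -0.77 to 0.05. FCER1G, the signalling chain shared by several Fc receptors, was at 0.32 (SE 0.20) and 0.07 (SE 0.16), higher in 2 of 4 animals. Of the 11 Fc receptor genes tested 8 were above 0 with a median of 0.12, and 9 with 0.07 without dry 1. The monocyte markers given before moved in the same direction as FCGRT and FCGR3A, and their part in these differences was not tested.

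Markers of T cells and of B cells were mostly below 0 once dry 1 was left out. T cell markers had 15 of 25 genes above 0 and a median of 0.01 with all arrays, and 2 of 25 with -0.13 without dry 1. B cell and plasma cell markers had 9 of 19 above 0 and a median of -0.02, and 2 with -0.13 without dry 1. In limma without dry 1, 1 gene of each list was lower at an unadjusted p under 0.05, where 1.24% of all genes were. The T cell median by animal was 0.54, -0.29, -0.08 and -0.04, and that of B cells 0.52, -0.12, -0.19 and -0.08. Without dry 1, T cell means ran from -0.10 to 0.26 on dry arrays and from -0.19 to 0.04 at lactation, with overlap. MS4A1, the B cell surface protein CD20, read -1.12 on dry 1, 0.11 to 0.17 on the other dry arrays and -0.34 to -0.13 at lactation. Its difference was -0.07 (SE 0.21), and -0.39 (SE 0.14) without dry 1. ZAP70, the kinase of the T cell receptor, was at -0.23 (SE 0.24) and -0.53 (SE 0.20), with dry 1 at -0.83 and the other dry arrays at -0.09 to 0.73. In both cases dry 1 alone stood below the lactation arrays. CD4, the coreceptor of helper T cells, was at -0.18 (SE 0.13) and -0.16 (SE 0.14). NK and cytotoxic cell markers had 11 of 22 above 0 with a median of 0.00, and 9 with -0.02 without dry 1.

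Gamma delta T cells, which are abundant in the blood of cattle, carry scavenger receptors of the WC1 family. Their markers were below 0 in 8 of 8 genes in both fits, with a median of -0.15, and -0.32 without dry 1. The median by animal was -0.05, -0.28, -0.22 and -0.20, and within slides -0.05, 0.03 and -0.24. Without dry 2 the list median was -7e-05. Dry 1 was then among the dry arrays left, with a list mean of -0.33 against 0.185 on dry 3 and 0.32 on dry 4. No list median without both arrays is given here. CD163L1, the symbol under which the files' WC1.1 probes are named, read -0.55, 1.77, -0.07 and 0.85 in the dry period and -0.71, 0.77, -0.97 and 0.00 at lactation. It was lower in 4 of 4 animals, by 0.16 in animal 1 and by 0.85 to 0.99 in the others, although values of different animals overlapped. The difference was -0.72 (SE 0.39, adjusted p = 0.847), and -1.07 (SE 0.38) without dry 1. Its 7 probes all gave values below 0, from -0.22 to -0.72. WC1.3, whose probe is printed above, was at -0.50 (SE 0.18) and -0.49 (SE 0.20), lower in 3 of 4 animals. BLK, a Src family kinase of B cells and gamma delta T cells, was at -0.25 (SE 0.37) and -0.77 (SE 0.27). WC1 genes are near-identical copies, so the split among them is uncertain, and on slide B the lactation array was 0.84 above the dry array for CD163L1.

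On the lower side, the genes named here had smaller differences that changed little without dry 1. HDAC7, a class II histone deacetylase that shapes lymphocyte development, on chr5:32666698-32666757, read 0.15, 0.13, 0.34 and 0.02 in the dry period and 0.09, -0.23, -0.34 and -0.33 at lactation. It was lower in 4 of 4 animals by 0.06 to 0.68. The difference was -0.37 (SE 0.10, adjusted p = 0.847), and -0.37 (SE 0.11) without dry 1, and its early probe gave -0.21. INPP5B, a phosphatase of inositol lipids, read 0.14, 0.08, -0.07 and -0.14, then -0.49, -0.41, -0.31 and -0.19. The states did not overlap, and the difference was -0.35 (SE 0.10), or -0.30 (SE 0.11) without dry 1. ITGA10, a collagen-binding integrin chain, had dry values of -0.01 to 0.18 and lactation values of -0.30 to -0.13, and a difference of -0.35 (SE 0.11), or -0.36 (SE 0.12). TAF1, the largest subunit of general transcription factor IID, had lactation values of -0.28 to -0.20 (SD 0.04, n = 4) and dry values of -0.18 to 0.12. Its difference was -0.25 (SE 0.07), and -0.21 (SE 0.08) without dry 1, while its other 3 probes gave -0.05, -0.05 and 0.04. TBP, the TATA-binding subunit of the same complex, went the other way at 0.24 (SE 0.10) and 0.17 (SE 0.10), with 3 of its 5 probes below 0.

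Other genes on the lower side came from several functions. FOXO4, a forkhead factor that insulin's kinase cascade keeps out of the nucleus, was at -0.32 (SE 0.11), and -0.27 (SE 0.12) without dry 1, with both of its probes below 0. PHC1, a polycomb protein, was at -0.30 (SE 0.10) and -0.28 (SE 0.11), and VAMP1, a SNARE of vesicle fusion, at -0.34 (SE 0.11) and -0.39 (SE 0.12). CUL7, a ubiquitin ligase scaffold, was at -0.32 (SE 0.12) and -0.26 (SE 0.12). SERPINB9, an inhibitor of granzyme B, was at -0.21 (SE 0.07) and -0.18 (SE 0.07), and CAPZB, an actin capping protein, at -0.24 (SE 0.09) and -0.22 (SE 0.09). The 15 lower genes with the smallest p, taken on the brightest probe with 1 sign in 4 of 4 animals and without placeholder locus names, had differences of -0.37 to -0.20 and adjusted p-values of 0.847 or more. The groups did not overlap in 8 of them, which the choice by small p and 1 sign favours. Over all genes tested, the groups did not overlap on the lower side in 0.958%. Lower genes at an unadjusted p under 0.05 in limma also make up 0.958%. The locus LOC615640, which has no descriptive name, on chr12:80237054-80237113, had a smaller p than these, with dry values of 0.23, 0.60, 0.11 and 0.39 and lactation values of -0.37, 0.15, -0.21 and -0.06. It was lower in 4 of 4 animals, at -0.45 (SE 0.10, adjusted p = 0.753), and at -0.49 (SE 0.11) without dry 1, and on slide B the lactation array was 0.04 above the dry one. As groups, histone deacetylases with polycomb proteins had 21 of 34 genes above 0, and 15 without dry 1, and SNAREs had 30 of 36, and 22 without dry 1.

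Some values depended on dry 1, in either direction. REEP5, a protein that shapes the endoplasmic reticulum, read -2.0 on dry 1 and -0.40, -0.66 and -0.67 on the other dry arrays, and its difference of 0.82 (SE 0.23) became 0.46 (SE 0.15). Its other probe had a similar mean log2 Cy5 signal, 10.99 against 10.74, and read -0.09 on dry 1. That probe gave 0.16 (SE 0.16), and 0.20 (SE 0.17) without dry 1, so the probes of REEP5 disagreed on that array. TTLL3, a ligase that adds glycine to tubulin, had the smallest p of all genes without dry 1 (unadjusted p = 3.87e-05, adjusted p = 1.00). There its 3 dry values of 0.06, 0.09 and 0.10 stood above lactation values of -0.54 to -0.25, and the difference was -0.48 (SE 0.09). Dry 1 read -0.84, and with it the difference was -0.25 (SE 0.15). The reported probes of SH3GLB2, KLHDC3, ZNF598 and MINK1 behaved alike on that array: dry 1 read -1.06, -0.94, -1.17 and -0.51 in that order and stood below all lactation values of the same probe. Their differences without it were -0.42, -0.40, -0.30 and -0.37, and -0.09, -0.13, -0.10 and -0.19 with it. Other probes of these genes did not all do so. Dry 1 read 0.18 on the other SH3GLB2 probe, and 0.48 and 0.05 on the other MINK1 probes. The MINK1 probe at 0.05 gave -0.23 with and without dry 1. On the other KLHDC3 probes dry 1 read -0.44 and -0.73, below all lactation values. PLBD1, a lysosomal phospholipase of granulocytes and monocytes, was the opposite case: dry 1 read 0.63 against -0.76 to -1.24, and the difference went from -0.00 (SE 0.25) to 0.40 (SE 0.13). The reported probes of L1CAM and PPIC stood at -0.49 and -0.43 through dry 4 alone, which read 1.64 and 1.40 where all other arrays read -0.18 to 0.24. The other tested L1CAM probe gave -0.17 (SE 0.07), and dry 4 read 0.09 on it. Its dry values of 0.09 to 0.24 stood above its lactation values of -0.05 to 0.03, and it was above background on 4 arrays.

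Interferon-stimulated genes, the antiviral response programme, differed between animals more than between states. Of 39 tested, 29 were above 0 with a median of 0.20, and 27 with 0.05 without dry 1. The median by animal was 0.90, -0.07, -0.15 and 0.13, and within slides 0.90, -0.74 and 0.33. PARP14, a mono-ADP-ribosyl transferase of this response, read -1.42, -0.49, 0.25 and -1.32 in the dry period and 0.32, -0.30, 0.81 and 0.16 at lactation. It was higher in 4 of 4 animals, by 0.19 to 1.74, and the states overlapped through animal 3. The difference was 0.99 (SE 0.27, adjusted p = 0.847), and 0.77 (SE 0.27) without dry 1, while on slide B the lactation array was 0.55 below the dry one. TLR7, a sensor of single-stranded RNA, was higher in 4 of 4 animals by 0.30 (SE 0.12), and by 0.33 (SE 0.13) without dry 1. CLEC4D, a lectin receptor of myeloid cells, was higher by 0.46 (SE 0.20) and 0.49 (SE 0.22). These values held their size without dry 1.

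Against Holstein-Friesian cattle, the test of the difference between the breeds' effects called 0 of 32590 probes in limma (0%), with and without dry 1. CPT1A differed between states by -0.09 (SE 0.24) in Holstein-Friesian, and the gap between the breeds was 1.39 (SE 0.34, adjusted p = 1.00), or 1.36 without dry 1. SLC25A20 was at -0.12 (SE 0.15), PDK4 at -0.05 (SE 0.24), FCGRT at -0.02 (SE 0.19) and KLF11 at -0.36 (SE 0.26) in Holstein-Friesian, and the gaps of these 4 did not pass either. THBS1 and the innate immune genes FCGR3A and S100A8 were close between the breeds, at 1.21 (SE 0.42), 1.06 (SE 0.27) and 1.21 (SE 0.47) in Holstein-Friesian against 1.29, 0.86 and 1.19 in Polish Red. The gap for THBS1 was 0.08 (SE 0.60), which leaves a wide interval. CD163L1 was at -1.08 (SE 0.39) in Holstein-Friesian.

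The authors' deposited table lists 158 probes for this comparison, chosen by them on these arrays, so its values are a description and no independent evidence. Higher at peak lactation in the authors' deposited table are 67 probes and lower are 91, and 131 of all carry a gene symbol. Of the 158 probes, 149 were tested here, and 147 of those had the same sign. At an unadjusted p under 0.05 in limma were 129, or 112 without dry 1, and 0 passed after adjustment. The median absolute difference of the 158 probes was 0.54 in the authors' deposited table, and that of the 149 was 0.34 here. Without dry 1 all 158 kept their sign in the authors' deposited table, and 11 (6.96%) lay nearer to 0 by over 1.5 times.

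Named genes of that selection overlap with those above on the higher side. In the authors' deposited table KLF11 differed by 1.56 and 1.60 on its 2 listed probes, PARP14 by 1.06 and RPL39 by 0.94 on its higher probe. The KLF11 value of 1.60 belongs to the early probe, which gave 0.23 here. In the authors' deposited table GNB4, a G protein subunit, differed by 0.80, which was 0.78 here, and ATP5PO of the ATP synthase by 0.50, which was 0.52. On the lower side the dim probes differed most between the 2 treatments of the data. BCO2, a carotenoid-cleaving enzyme, stood at -2.24 in the authors' deposited table and at -0.34 (unadjusted p = 0.136) here, and HSD11B1L at -1.68 there and 0.01 here. ZMYM3 stood at -1.07 in the authors' deposited table and at -0.12 here. FBXO46 at -1.57 and CYB5D1 at -1.47 in the authors' deposited table were not tested here because they were not above background on enough arrays. The bright lower genes were closer, with HDAC7 at -0.53 and INPP5B at -0.57 in the authors' deposited table against -0.37 and -0.35 here.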

How the data were processed

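Per the file headers, each spot file holds the intensity of every spot in both dyes with its local background, from Agilent Feature Extraction (10.10.1.1 there, 10.7.3.1 in the submitters' processing notes). The authors' deposited table holds normalized log2 ratios of 158 probes, chosen by analysis of variance with Tukey's test per the series text. Its log base was checked against the spot files, each array's own column matched best, and the exact normalization is not given in the sources used here. The yes-or-no calls per spot for background, saturation and outliers came from the spot files, per the file headers. Probes are placed on UMD 3.1, per the file headers.

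Mean signals were corrected by normexp with an offset of 50 and adjusted by loess within each array, leaving out 1417 control spots and outlier spots. Array precision is limited by the 4 arrays of each state. A probe was tested where Cy5 was above background on at least 3 of 4 arrays of a state. Limma 3.58.1 (statmod 1.5.0, R 4.3.3, data.table version 1.17.8) fitted 6 group means over 24 arrays with 18 residual degrees of freedom, and adjusted p-values are Benjamini-Hochberg over all probes tested. The fit was tested on simulated data with independent normal noise of equal spread in all groups. That simulation had no bright array and no animal or slide effect, so it does not cover these features of the data. Tables and plots used Python 3.11.15, pandas 2.3.3, numpy 2.4.6 and matplotlib 3.10.9. Reference names matched 34099 of 43653 probes to 1 symbol, 16544 symbols in all; each gene was represented by its brightest probe. Of the list members, 5 were found under other symbols, among them CEACAM8, WC1.1 and TRGC1 (CEACAM1, CD163L1 and TARP).

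The members, lists and tests were chosen with earlier results of these data known. Named genes are the 15 and 15 with the smallest p and 1 sign in 4 of 4 animals, the 10 and 10 without dry 1, the 8 and 8 largest at an unadjusted p under 0.05 in both fits, the leading members of each list, and the 8 and 8 largest of the authors' table. GNB4 and ATP5PO in that table, and the second KLF11 probe, were chosen after their values were seen. Placeholder locus names were left out of these rankings, and LOC615640 was added after its value was seen. Some genes that the rule names are not reported here. The series text states that the same animals were bled in both states. Their arrays' residuals correlated at 0.03, 0.09, 0.16 and 0.28 for animals 1 to 4. Alternatives covered background, normalization, filters, slide, position, array weights, dyes, animal block and each array left out.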

Additional observations from a re-analysis of the deposited data

Results flagged for a closer look

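In 37 of 318 groups of 4 values that were tested, 1 array stood far from the other 3. Chance gives about 1 in 20 for independent groups not chosen by their values. Many of these genes were chosen on the same arrays and lists share members, so no excess over chance is read from the count. Dry 1 was the far array in most dry groups. Its mean over a list was far below the other 3 in carnitine entry and beta oxidation (-0.509), PPAR receptors, partners and targets (-0.460), the proteasome (-0.718), glucose transport and glycolysis (-0.644) and glucocorticoid response (-0.864). The same was so in dendritic cell markers (-0.613), immediate early genes (-0.550), circadian clock genes (-0.200), histone deacetylases and polycomb proteins (-0.411) and vesicle SNAREs (-0.485).

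Among single genes, each on its reported probe, dry 1 was far below the other dry arrays in REEP5 (-2.002), PRKRIP1 (-0.666), TTLL3 (-0.837), SH3GLB2 (-1.057), the proteasome subunits PSMA6 (-1.521) and PSMD6 (-1.375) and HMGCS1 (-0.967). It was also far below in the immune genes FCER1G (-1.255), MS4A1 (-1.117) and NLRC4, an inflammasome sensor (-1.194). The chaperonin subunit CCT3 (-1.210), the peroxiredoxin PRDX4 (-0.850) and the transcription factor IID subunits TAF10 (-1.222) and TAF6 (-0.359) complete that set. Other dry arrays were far from the rest in 3 genes, dry 4 high in L1CAM (1.643) and PPIC (1.399) and dry 2 low in CD4 (-0.018).

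At peak lactation the far arrays varied. Animal 1 was high in the list of PPAR receptors, partners and targets (0.135), in the integrins ITGB6 (0.475) and ITGA2B (0.358), and low in heat shock proteins and chaperones (-0.200). Animal 2 was low in MHC class I and peptide loading (-0.392) and in STX7, a SNARE of late endosomes (-0.157). Animal 3 was high in proteasome subunits (0.147), ITGA10 (-0.131), RASL10A, a small GTPase (-0.075), and PRDX4 (0.337).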

How the results depend on the processing

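No probe passed an adjusted p of 0.05 under any alternative except quantile normalization of the log ratios, which called 13 probes, 4 higher and 9 lower. Among them were the reported probes of REEP5 (1.36), KIAA1598 (1.06), INPP5B (-0.68), TTLL3 (-0.82) and ZNF598 (-0.75), and the early probe of RPL39 (1.44). The count at an unadjusted p under 0.05, 1818, became 756 with the 8 arrays alone, 3017 with Cy5 alone, 909 with array position, 841 with median centring, 3090 with quantile normalization and 3202 with slide as a fixed block. It was 128 by the methods' analysis of variance with Tukey's comparison (0 when adjusted), and 826 to 3534 with 1 array left out. The replicate block of animals gave 2332 and 0 after adjustment, and it changed no call.

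List medians differed from the reported value by less than the SD of the 4 animals in 978 recomputations and by more in 22. That SD includes animal 1 and so dry 1, which widens it in many lists, so the 978 say little on stability. For complex I the SD was 0.49, and the move from 0.38 to 0.13 without dry 1 counted as less. Cy5 alone gave 0.37 for pyruvate dehydrogenase, 0.36 for acyl-CoA synthetases, 0.39 for mitochondrial ribosomal proteins, 0.27 for insulin signalling, 0.35 for B cell, 0.16 for NK, -0.43 for eosinophil and -0.050 for gamma delta T cell markers. It gave 0.21 for cytokines, 0.23 for mitosis, 0.30 for deacetylases and polycomb proteins, 0.50 for transcription factor IID and 0.51 for SNAREs. Its median over all genes was 0.15. Median centring gave 0.61 for cytosolic ribosomal proteins. Array position gave -0.34 for gamma delta T cell markers and 0.19 for mitosis, processed signals -0.29 and, for eosinophil markers, -0.20, and quantile normalization -0.27 for gamma delta T cell markers. With 1 array left out gamma delta T cell markers ran from -0.32 to -7e-05 and NK markers from -0.10 to 0.078.

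Among named genes 40 recomputations turned the sign, in the genes that follow, and 2805 did not change a call or a sign. PLBD1 (-0.00) became 0.40 without dry 1, 0.35 with the animal block without dry 1, 0.35 with array weights, 0.23 with median centring, 0.0052 with the slide block and 0.00077 with outliers kept. Cy5 alone turned ITGB6 (-0.76), TTLL3 (0.24), MINK1 (0.27), ZNF598 (0.55), SH3GLB2 (0.47), KLHDC3 (0.26), TUBGCP6 (0.14), PSMA4 (-0.19), PER1 (0.26), ZAP70 (0.21), GATA3 (0.46), BLK (0.16), MS4A1 (0.54), NRGN (0.033) and TAF6 (0.17). Median centring turned CD4 (0.086) and GATA3 (0.0063), the slide block GATA3 (0.056) and WC1 (0.024), array weights CD72 (-0.035), and the animal block without dry 1 FCER1G (-0.055). With 1 array left out, PLBD1 ran from -0.22 to 0.40, ZNF598 from -0.30 to 0.0093, SH3GLB2 from -0.42 to 0.042, GATA3 from -0.33 to 0.089, BLK from -0.77 to 0.023 and MS4A1 from -0.39 to 0.040. The cause was not tested.

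Each state has 4 animals, and no array repeats an RNA. Probes not above background on enough arrays were not tested. Position on the slide and state overlap in part, and the dry array of animal 1 has no second measurement.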

Other observations

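In genes of mitosis and DNA replication dry 1 did not have the lowest mean. Of 32 tested, 25 were above 0 with a median of 0.08, and 27 with 0.08 without dry 1, and the median by animal was -0.08, 0.06, 0.10 and 0.15. BUB1, a kinase of the spindle checkpoint, was higher in 4 of 4 animals by 0.22 (SE 0.10), and by 0.23 (SE 0.11) without dry 1. RRM1, a subunit of ribonucleotide reductase, was at 0.30 (SE 0.12) and 0.24 (SE 0.12), and MCM7 of the replicative helicase at 0.35 (SE 0.20) and 0.03 (SE 0.10), with its other probe at -0.22. Limma passed 0 of them after adjustment.

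Red cell precursor markers varied between animals. Their mean ran from -0.33 to 0.55 on dry arrays and from -0.46 to 0.66 at lactation, and 13 of 24 genes were above 0. Glucocorticoid response genes, which answer to stress hormones, had 17 of 24 genes above 0 and a median of 0.20, and 14 with 0.05 without dry 1; by animal it was 0.98, 0.11, -0.14 and 0.08. BCL6, a repressor in this list, read -2.25 on dry 1 and differed by 0.65 (SE 0.33), and by 0.28 (SE 0.30) without it. Milk protein and milk fat genes had 4 of 11 above 0 and a median of -0.02. Platelet markers had 7 of 17 above 0. NRGN, a calmodulin-binding protein abundant in platelets, was lower in 4 of 4 animals at -0.24 (SE 0.12), and -0.34 (SE 0.12) without dry 1. For animals 1 to 4 it read -0.11, 0.12, 0.40 and 0.34 in the dry period and -0.12, 0.08, -0.19 and 0.02 at lactation. Animals 1 and 2 thus hardly differed between states. THBS1, described above, stood on the higher side.

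Of 43653 probes, 55 were above background on at least 3 dry arrays and on no lactation array. The other way round there were 0, with dry 1 above background for nearly every probe. Without dry 1, 3 probes were above background on all 3 remaining dry arrays and on no lactation array. On at least 3 of 4 lactation arrays and on none of these dry arrays were 75. The rule for lactation is the looser one, so these counts do not compare. Lactation 3 also had 37764 probes above background, against 30835 to 33834 on the other Polish Red arrays apart from dry 1. The widest bound among the 55 was LBP, the carrier of lipopolysaccharide, with a Cy5 signal at least 1.19-fold higher in the dry period. Its log2 ratio differed by 0.11 in the other direction. The methods' test gave 128 probes, of which 65 are in the authors' deposited table, 50.8% of the former and 41.1% of the latter.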
